A study of Mus musculus with 40 samples.

Results

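Okadaic acid treatment was compared in spermatocytes matched on a high level of Aurka, the transcript of Aurora kinase A. A cell was kept when it had at least 400 CPM (counts per 1000000 counts of that cell) of Aurka, under 100 CPM of Acrv1, an acrosomal transcript of spermatids, and under 1000 CPM of Clu, a Sertoli cell transcript. This kept 18 of 40 cells, 9 of 20 named Pachytene and 9 of 20 named Metaphase I. The cells were chosen by their measured Aurka, Acrv1 and Clu levels, which are given below as a description of the choice and not as a result.

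The series holds transcript counts of 40 single cells from testis of C57BL/6J mice aged 6 to 8 weeks. Spermatocytes were enriched by centrifugal elutriation, which separates cells by size, and okadaic acid, given in culture at 4 µM for 5 h, drove them on to metaphase I. The protocol text is shared by all 40 libraries, so the treated cells were recognised by the name Metaphase I, and the sources used here do not say if Pachytene cells were also held in culture. Drug, stage and time in culture therefore cannot be told apart. No animal or culture is named, so each group is 1 sample, cells are no replicates, no test was made, and every difference below describes these cells.

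Okadaic acid inhibits serine/threonine phosphatases of the PP1 and PP2A class, which hold back cyclin B and Cdk1 activity. Inhibiting them in cultured pachytene spermatocytes brings on chromosome condensation, disassembly of the synaptonemal complex and formation of metaphase I bivalents. Aurora A, polo-like kinase Plk1 and cyclin B1 (Ccnb1) act together at this entry into M phase, and their transcripts accumulate late in meiotic prophase. Mitochondrial DNA encodes subunits of the respiratory chain and the rRNAs of mitochondrial ribosomes, and all these transcripts are made and decay inside the organelle.

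The kept Pachytene cells had 538 to 862 CPM of Aurka (median 590), and the kept Metaphase I cells had 426 to 808 CPM (median 711). The kept cells nearest the limit were Metaphase I replicate 4 at 426 CPM and replicate 5 at 461 CPM, and the nearest below it, among cells that passed the limits on Acrv1 and Clu, were Metaphase I replicate 10 at 319 CPM and Pachytene replicate 5 at 273 CPM. Acrv1 reached 23.0 CPM and Clu 28 CPM in a kept cell. A further 3 Metaphase I cells had 400 CPM of Aurka or more and were left out for Acrv1, at 117 to 252 CPM. Another 7 Pachytene and 6 Metaphase I cells were under the Aurka limit and passed the limits on Acrv1 and Clu, and they are given beside the kept cells as the Aurka-low cells.

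**Figure D1:**
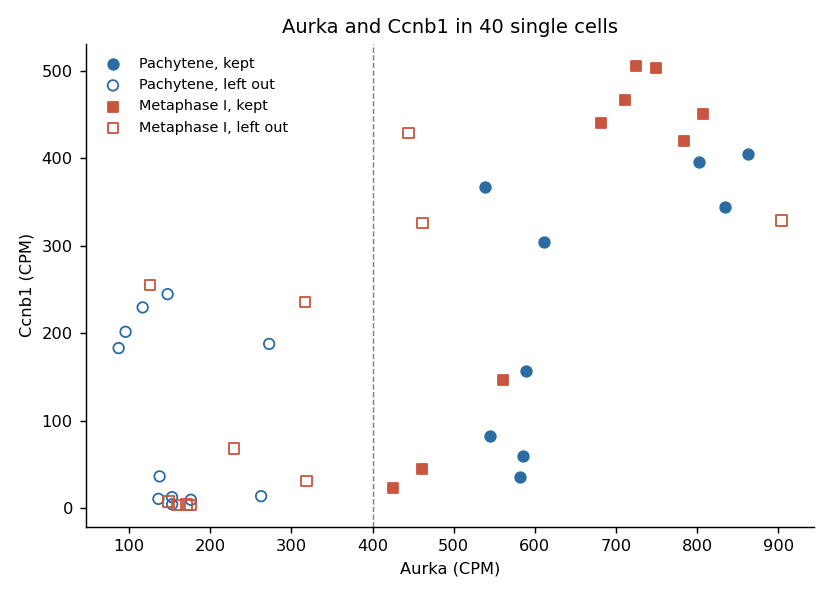
Aurka (x axis, CPM) against Ccnb1 (y axis, CPM) in 40 cells, with 1 point per cell, filled where the cell was kept. The dashed line is the limit of 400 CPM. Of the 9 kept Metaphase I cells, 6 lay above every kept Pachytene cell in Ccnb1, and 2 lay under 100 CPM, as did 3 kept Pachytene cells.

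The other M-phase markers showed that the match on Aurka left a wide range of cells in both groups. Ccnb1, the cyclin that activates Cdk1, had 35.9 to 404 CPM in the kept Pachytene cells (median 304) and 22.7 to 505 CPM in the Metaphase I cells (median 440), a log2 ratio of 0.48. Its 6 highest Metaphase I cells, at 420 CPM and more, were above every Pachytene cell, whereas the lowest Metaphase I cell was below every Pachytene cell. At 300 CPM or more were 5 Pachytene and 6 Metaphase I cells, and under 100 CPM were 3 and 2. Plk1, a kinase of M-phase entry and spindle assembly, had 65.5 to 305 CPM (median 138) and 66.9 to 347 CPM (median 248), a log2 ratio of 0.28, and the groups overlapped over most of this range. In the Aurka-low cells Plk1 had medians of 5.55 CPM in Pachytene and 5.92 CPM in Metaphase I, so the kept cells carried this marker at far higher levels in both groups.

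Totals were 460721 to 2283438 counts per kept Pachytene cell and 282915 to 1391126 per kept Metaphase I cell. After each was thinned to 280000 counts, 8279 to 10268 genes were detected in Pachytene cells and 9095 to 9984 in Metaphase I cells. Pachytene replicate 4 stood apart, with the fewest genes and 643 CPM of mitochondrial RNA, where the other 8 Pachytene cells had 10403 CPM or more. Pachytene replicate 1 had the most late spermatid RNA, 1871 CPM over the list used here, followed by replicate 4 at 949 CPM, and the other 16 kept cells had 540 to 841 CPM. Results that rest on these cells are given with and without them, for some genes only with 1 of the cells left out at a time. Of 23 Sertoli markers, 12 were at 0 in all kept cells, Sox9, Wt1, Amh and Gata4 among them, and the summed level was 0 to 10.5 CPM in Pachytene and 0 to 51.0 CPM in Metaphase I cells, with 39 of the 40 Metaphase I counts of Clu in replicate 20. The Leydig enzymes Cyp17a1, Cyp11a1 and Hsd3b1 were at 0, and that list had at most 15.2 CPM.

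Matched in this way, the 2 groups were close to each other over most genes, and mitochondrial mRNA was lower in the Metaphase I cells. A gene counted as measured at 20 or more counts summed over the 18 cells, and its log2 ratio compares the mean CPM of the Metaphase I cells with that of the Pachytene cells, each cell weighted equally, after 1 CPM was added to both means. Of 11580 measured genes, 384 (3.32%) were higher by over 2-fold in Metaphase I and 666 (5.75%) were lower, 9.07% in all. With the medians over cells also past 2-fold the same way, 237 (2.05%) were higher and 416 (3.59%) lower. Ratios centred on a log2 value of -0.003, and the middle 50% lay between -0.29 and 0.25. Most of the genes past 2-fold were rare, with a median of 46 summed counts against 244 for all measured genes. Among 2853 genes with 1000 summed counts or more, 8 (0.28%) were over 2-fold apart, and their log2 ratios ran from -1.76, which is mt-Nd1, to 0.73, which is Fam135a. No gene had every Metaphase I cell above or every Metaphase I cell below every Pachytene cell (0 of 11580, 0.0% each way). In the Aurka-low cells 1483 of 10898 genes (13.6%) were over 2-fold higher and 927 (8.51%) lower.

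Cells were about as alike across the groups as within them. Spearman correlations of CPM over 7782 genes with 100 counts or more had medians of 0.851 among Pachytene pairs, 0.874 among Metaphase I pairs and 0.866 across the groups. These values are descriptions over genes of cells that differ in depth. For 2 of 9 Pachytene cells the most similar cell was another Pachytene cell, and for 7 of 9 Metaphase I cells it was another Metaphase I cell. For many cells of both groups this most similar cell was Metaphase I replicate 20, which had the most counts of the kept Metaphase I cells. These numbers therefore reflect that cell as well as the groups. The abundant spermatocyte transcripts were close in both groups. Ldhc, the germ cell lactate dehydrogenase subunit, had means of 18476 CPM in Pachytene and 19078 CPM in Metaphase I. Lyar, a nucleolar factor, had 5734 and 5483 CPM, and Meig1, a protein needed later for sperm formation, had 5606 and 5026 CPM.

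**Figure D2:**
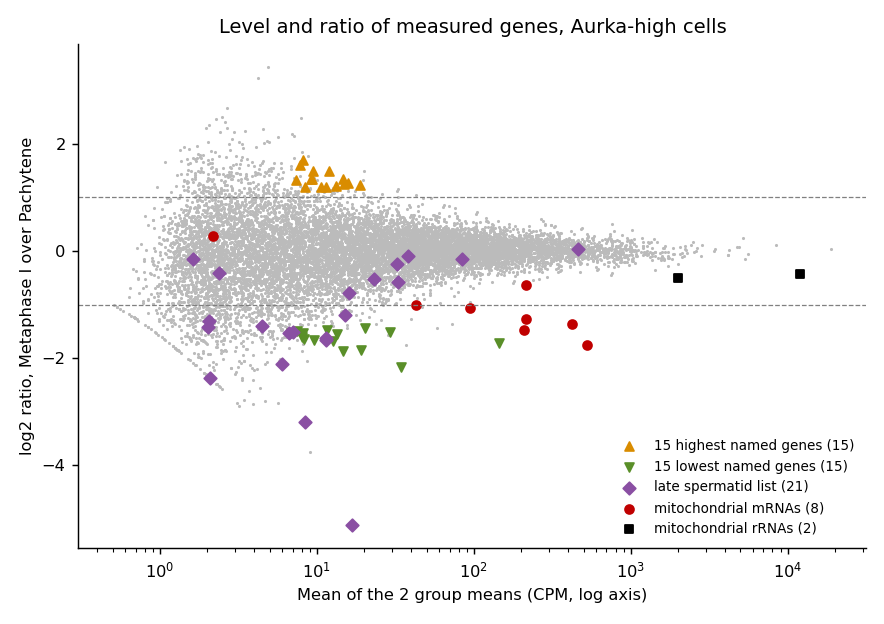
Mean level (x axis, CPM on a log axis, average of both group means) against the log2 ratio of Metaphase I over Pachytene (y axis) for the 11580 measured genes. Grey points are all genes, coloured points the named groups, and dashed lines mark 2-fold. Mitochondrial mRNAs lie below -1 at levels where few other genes do, and most late spermatid genes below -1 are rare.

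Of the 13 protein genes of the mitochondrial genome, 8 were measured, and 6 of these were over 2-fold lower in Metaphase I and 0 higher, against 5.75% and 3.32% of all genes. Their median log2 ratio was -1.16. The other 5, mt-Nd4l, mt-Co2, mt-Co3, mt-Atp6 and mt-Atp8, are listed at 0 in all 40 cells, and no level is given for them. The annotated 3' ends of mitochondrial protein genes are shown because these libraries were primed with oligo(dT) and kept 3' ends. Several of these genes also carry no full stop codon. The annotated end of a gene need not be the end of its mRNA or the site that was primed, which was not tested. The sequences are the last 30 bases of the gene, 5' to 3', from the GENCODE M21 transcripts on GRCm38, with the closing stop triplet in capitals, or the single base that remains after the last full codon where the poly(A) tail completes the stop.
mt-Nd1 (chromosome M, 2751 to 3707, plus strand): tttacagcgggagtaccaccatacataTAG
mt-Co1 (chromosome M, 5328 to 6872, plus strand): gaggaaccaacctatgtaaaagtaaaaTAA
mt-Nd4 (chromosome M, 10167 to 11544, plus strand): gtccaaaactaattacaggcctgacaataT
mt-Cytb (chromosome M, 14145 to 15288, plus strand): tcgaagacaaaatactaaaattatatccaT
mt-Nd5 (chromosome M, 11742 to 13565, plus strand): attatcttatactcaattaatctcgagTAA
mt-Nd6 (chromosome M, 13552 to 14070, minus strand): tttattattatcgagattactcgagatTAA
The genes of mt-Nd5 and mt-Nd6 overlap on opposite strands between 13552 and 13565, and the sources used here do not say if counting used strand, so their counts are uncertain against each other.

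The complex I subunit mt-Nd1 differed most among the mitochondrial mRNAs. It had 10.6 CPM in Pachytene replicate 4 and 417 to 1433 CPM in the other 8 Pachytene cells, with a median of 730 CPM over all 9. The Metaphase I cells had 72.7 to 389 CPM, with a median of 223 CPM. Pachytene replicate 4 was therefore below all Metaphase I cells, and the other 8 were above all of them. The log2 ratio was -1.76, from -1.93 without Pachytene replicate 4 to -1.62 without replicate 1. Without replicate 4, mt-Nd1 was the only gene of 11580 (0.00864%) with every Metaphase I cell below every Pachytene cell. With all kept cells it was 0 of 11580. Replicate 4 was set apart partly by its low mitochondrial RNA, so this separation depends on a choice made on the same RNA and is only a description.

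The other subunits followed the same direction except mt-Nd3. The cytochrome c oxidase subunit mt-Co1 had 3.53 CPM in Pachytene replicate 4, 343 to 935 CPM in the other Pachytene cells, and 103 to 474 CPM in Metaphase I (log2 ratio -1.36). Of the 9 Metaphase I cells, 7 were below the lowest of those 8 Pachytene cells. The cytochrome b mRNA mt-Cytb had medians of 253 and 92.2 CPM and a log2 ratio of -1.47, which was -1.13 without Pachytene replicate 20, its highest cell. The complex I subunits mt-Nd4 and mt-Nd5 had log2 ratios of -1.27 and -1.06, with medians of 310 and 128 CPM for mt-Nd4 and 141 and 56.6 CPM for mt-Nd5. The light-strand subunit mt-Nd6 had medians of 52.8 and 28 CPM and a log2 ratio of -1.0, at the limit of 2-fold. Over the omissions of a single cell, mt-Nd5 was over 2-fold lower in 13 of 18 and mt-Nd6 in 12 of 18, so the number of genes past 2-fold was 4 to 6. The subunit mt-Nd2 reached -0.64 with medians of 307 and 136 CPM. The rare mt-Nd3 had 17 counts in each group and a log2 ratio of 0.28.

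Summed over these genes, the mitochondrial mRNA was 79.5 CPM in Pachytene replicate 4, 1617 to 3818 CPM in the other 8 Pachytene cells, and 343 to 1553 CPM in the Metaphase I cells. The group means were 2476 and 970 CPM, 2.55-fold lower in Metaphase I. Without replicate 4 the sum was 2.86-fold lower with no overlap between the groups. That cell was set apart partly by this same RNA, so the lack of overlap without it is no separate result. Among cells with 300 CPM of Ccnb1 or more, the log2 ratio of the sum was -1.47, against -1.35 in all 18 cells. The mitochondrial rRNAs differed less. The large rRNA mt-Rnr2 had medians of 14332 and 12802 CPM and a log2 ratio of -0.43, the small rRNA mt-Rnr1 had 2649 and 1391 CPM and -0.50, and the rRNA sum of the groups overlapped.

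In counts, the mRNA was thus lower relative to the rRNA of the same organelle. How well oligo(dT) priming captured each kind of RNA was not tested, so the ratio is one of counts and not of amounts. As a percentage of mitochondrial rRNA, mitochondrial mRNA was 10.1% to 21.1% in Pachytene cells (median 15.6%), and replicate 4, low in both kinds of RNA, had 14.1%. In the Metaphase I cells it was 4.20% to 19.0% (median 7.54%). Metaphase I replicate 12 had the 19.0%, and the other 8 had 11.5% or less, and 7 Metaphase I cells were below the lowest Pachytene cell. The ratio was chosen after the values of both RNA kinds were seen.

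**Figure D3:**
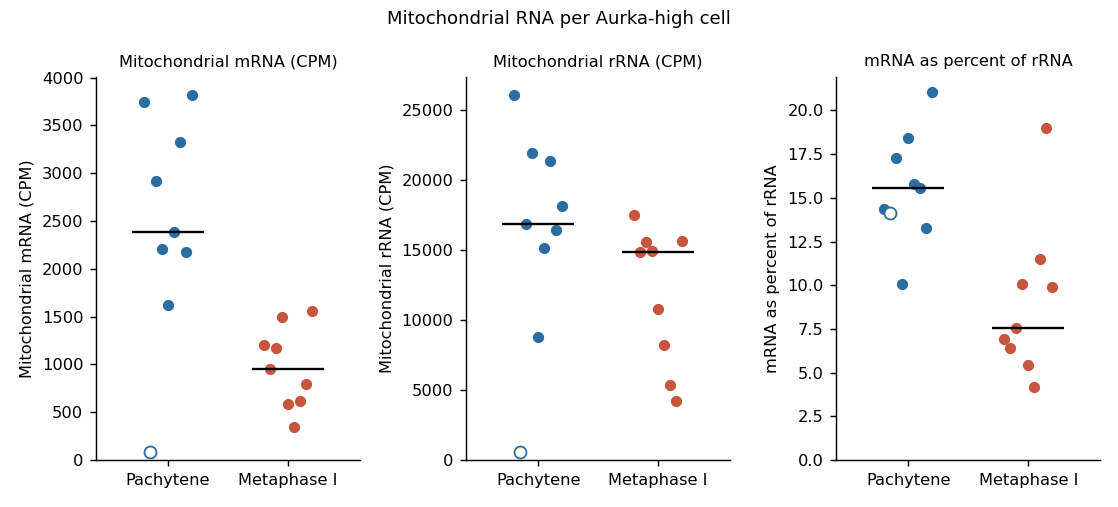
Summed mitochondrial mRNA (left, CPM), summed mitochondrial rRNA (middle, CPM) and mRNA as a percentage of rRNA (right) in the 9 kept Pachytene and 9 kept Metaphase I cells. Each point is a cell, the line is the median, and the open circle is Pachytene replicate 4. Apart from that cell all Pachytene cells lie above all Metaphase I cells in mRNA, and the rRNA overlaps.

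In the Aurka-low cells, which the limit on Aurka set aside, the direction depended on 1 cell. Their mitochondrial mRNA sum was 2413 to 7834 CPM in 7 Pachytene cells (median 4838) and 1120 to 22086 CPM in 6 Metaphase I cells (median 2102). Metaphase I replicate 18 held the 22086 CPM and the other 5 had at most 3529 CPM. Of the 6 Metaphase I cells, 3 were below every Pachytene cell in this sum. With all 13 cells the log2 ratio of the sum was 0.01 and 0 of 8 mRNAs were over 2-fold lower. Replicate 18 was left out after the values were seen. Without it the log2 ratio of the sum was -1.40, 2.63-fold lower. Of 8 mRNAs, 7 were then over 2-fold lower, against 11% of all genes in those cells. The mRNA was 12.4% to 28.9% of rRNA in the Aurka-low Pachytene cells and 5.50% to 10.6% in these 5 Metaphase I cells, with no overlap, and 24.5% in replicate 18. The rRNA sum differed by a log2 ratio of -0.21 without replicate 18.

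Values are given next for 2 nuclear genes chosen after their values were seen and for the energy metabolism list. Ndufb1-ps, named as a pseudogene of a complex I subunit, had 476 to 651 CPM in Pachytene and 325 to 500 CPM in Metaphase I. Its log2 ratio was -0.39, with 8 of 9 Metaphase I cells below every Pachytene cell. The share of all genes with so little overlap was not counted. Pink1, the kinase that marks damaged mitochondria, had medians of 281 and 172 CPM and a log2 ratio of -0.53. Of 25 measured energy metabolism genes, 3 were over 2-fold lower (5.75% of all genes) and 0 higher (3.32%), with a median of -0.07. The 3 were Aldoc and Aldoart2, aldolase isoforms with 26 and 50 Pachytene counts, and Gapdh, the somatic form of a glycolytic enzyme, with 8.87 and 3.58 CPM. Aldoc lost the 2-fold difference without Pachytene replicate 12, Aldoart2 without Pachytene replicate 1, and Gapdh without Pachytene replicate 20 or Metaphase I replicate 9 or 12. The germ cell form Pgk2 had 331 and 324 CPM.

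The genes named next are the 15 highest and 15 lowest log2 ratios among genes with 100 summed counts or more, a mean of at least 10 CPM and a count in 75% of cells in the higher group, and over 2-fold the same way in means and medians over cells. Of genes at this depth, 67 of 7782 (0.861%) were over 2-fold higher and 148 (1.9%) lower. The limits passed 38 higher and 52 lower genes.

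The 15 highest genes had mean levels of at most 26.8 CPM in Metaphase I. Uaca, a coiled-coil and ankyrin repeat protein (chromosome 9, 60794542 to 60880370), had 2.17 to 16.7 CPM in Pachytene (median 7.07) and 12.1 to 33.8 CPM in Metaphase I (median 18.7). It overlapped in 1 Metaphase I cell, as 8 of 9 were above every Pachytene cell, and its log2 ratio was 1.34. Ahsa2, a homolog of the HSP90 activator (chromosome 11, 23487882 to 23498030), had 0 to 23.9 CPM and 18.2 to 39.2 CPM, with all 9 Metaphase I cells above the Pachytene median and a log2 ratio of 1.23. Pum3, a Pumilio family RNA-binding protein, had medians of 6.34 and 14.1 CPM and a log2 ratio of 1.50, again with all 9 above the Pachytene median.

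Also among the highest were Smchd1, a repressor with an SMC hinge (1.60), Nsd1, an H3K36 methyltransferase (1.34), Ep300, a lysine acetyltransferase (1.33), and Hat1, an acetyltransferase of newly made histones (1.19). Smchd1 had medians of 0.57 and 8.68 CPM, and Pachytene replicate 6 held 80% of its Pachytene counts, so without that cell its log2 ratio was 2.22. Nsd1 was 0.90 without Metaphase I replicate 2, and Hat1 lost the 2-fold difference without Metaphase I replicate 6 or 8. Aspm, which acts at spindle poles, had medians of 3.91 and 10.8 CPM and a log2 ratio of 1.50, and Kif24, a kinesin of centrioles, had 6.52 and 25.3 CPM and 1.21. Nifk, a nucleolar partner of Ki-67, had a log2 ratio of 1.27. The endosomal proteins Rbsn and Snx2 had 1.34 and 1.25. The highest was Crtac1, an extracellular matrix protein gene, at 1.70 with medians of 3.91 and 10.1 CPM. Ramp3, a receptor accessory protein, had 1.20, and Nol4 had 1.19, which was 0.92 without Metaphase I replicate 5.

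The lowest genes covered unlike functions. Zfp389, a zinc finger gene (chromosome 13, 21504313 to 21506533), had 5.14 to 122 CPM in Pachytene (median 72.9) and 4.04 to 30.4 CPM in Metaphase I (median 10.6), a log2 ratio of -2.16. All 9 Metaphase I cells were below its Pachytene median, and 2 Pachytene cells, replicates 1 and 11, lay under its highest Metaphase I cell. Tmed6, a secretory pathway cargo receptor gene (chromosome 8, 107061476 to 107065644), was the most abundant, with 2.47 to 495 CPM (median 267) and 0 to 220 CPM (median 22.9), and a log2 ratio of -1.72. In Pachytene it was high in 5 cells, at 267 to 495 CPM, and 72.3 CPM or less in the other 4. The kinase Lrrk2 had a log2 ratio of -1.87, with Metaphase I replicate 12 holding 54.2% of its Metaphase I counts and -2.89 without that cell. Rgs9, a regulator of G protein signalling, had medians of 31.3 and 5.05 CPM and -1.84.

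Also among the lowest were Orc6, a subunit of the origin recognition complex (-1.66), Clip1, a microtubule plus-end protein (-1.54), Gar1, a component of H/ACA snoRNPs (-1.47), and Creb3l4, a transcription factor of the CREB family known in spermatids (-1.43). Gar1 was -0.96 without Pachytene replicate 4. Vkorc1l1, a vitamin K epoxide reductase paralog, had -1.67, Dhtkd1, a mitochondrial enzyme of lysine breakdown, -1.61, Nlk, a kinase of the MAP kinase family, -1.53, and Itpkb, an inositol trisphosphate kinase, -1.49. Arhgap23 had -1.64, which was -2.30 without Metaphase I replicate 5, and Fbxo25, an F-box protein, had -1.53, which was -2.45 without Metaphase I replicate 6. Abitram had -1.51.

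**Figure D4:**
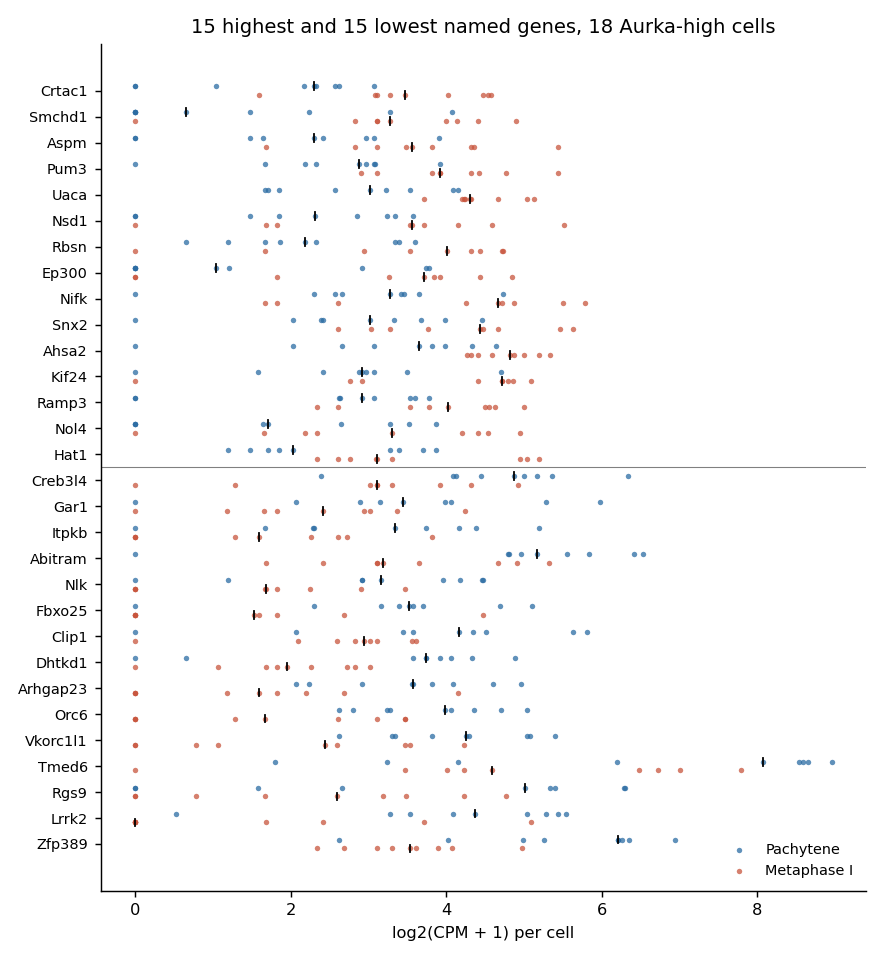
Level per cell, log2(CPM + 1) on the x axis, of the 15 highest (upper) and 15 lowest (lower) named genes in the 18 kept cells. Each point is a cell, coloured by group, and the black tick is the group median. The groups overlap for every gene shown.

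Promoters of these genes were searched for 3 motifs on both strands, from 250 bases before to 50 after the start in RefSeq on GRCm38. A promoter was found for 12 of the 15 highest and 12 of the 15 lowest genes. The AP-1 motif TGANTCA was in 0 of 12 and 0 of 12, against 8.97% of 27025 promoters, the CRE motif TGACGTCA in 0 and 1 (Abitram), against 2.03%, and the ATF4 motif TGATGNAAT in 0 and 0, against 1.08%.

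The next 5 genes were chosen after their values were seen. How common so little overlap was among all genes was not counted, so it is only a description. Cnot1, the scaffold of the CCR4-NOT deadenylase (chromosome 8, 95719451 to 95807464), had 181 to 315 CPM in Pachytene and 271 to 466 CPM in Metaphase I, with 7 of 9 Metaphase I cells above every Pachytene cell and a log2 ratio of 0.49. Ssh2, a phosphatase that activates cofilin and is needed in spermatogenesis, had 88.3 to 287 CPM and 265 to 420 CPM, with 6 of 9 above every Pachytene cell and a ratio of 0.60. Aars, the alanyl-tRNA synthetase, had 88.3 to 158 CPM and 145 to 211 CPM (0.44), also with 6 of 9 above. At lower levels and in the opposite direction, Wars, the tryptophanyl-tRNA synthetase, had medians of 63.4 and 34.3 CPM (-1.05), and no Metaphase I cell exceeded its Pachytene median. Leaving out any of 5 cells put Wars under 2-fold, and it was -0.88 without Pachytene replicate 4. Fkbp7, a chaperone of the endoplasmic reticulum, had 17.7 to 45.1 CPM and 0 to 20.2 CPM (-1.30), with 8 of 9 Metaphase I cells below every Pachytene cell.

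The transcripts of the drug's own targets differed little. Of 37 measured phosphatase subunits and regulators, 1 was over 2-fold higher (3.32% of all genes) and 1 lower (5.75%), with a median of -0.04. The PP1 catalytic subunit of testis, Ppp1cc, had 70.7 to 137 CPM in Pachytene (median 77.1) and 68.3 to 146 CPM in Metaphase I (median 102), a log2 ratio of 0.27. The PP2A catalytic subunit Ppp2cb had 38.9 to 117 CPM and 82.2 to 164 CPM (0.37), and the paralog Ppp2ca had means of 2.19 and 3.05 CPM (0.35). Ppp1cb had 0.44, Ppp4c 0.04, Ppp6c 0.04 and Ppp5c -0.25. Ppp1ca is listed at 0 in all 40 cells. All these groups overlapped. The higher gene was the PP2A inhibitor Anp32a, with 16 and 17 counts, past 2-fold in 7 of 18 omissions of a cell, at 0.16 without Metaphase I replicate 4 but 1.83 without Pachytene replicate 6. The lower was the PP2A subunit Ppp2r2b, with 31 and 4 counts, at -0.53 without Pachytene replicate 6 and also under 2-fold without replicate 12.

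Genes of M-phase entry were close in the 2 groups beyond the markers above. Of 24 measured kinases, cyclins and their regulators, 1 was over 2-fold higher (3.32% of all genes) and 0 lower (5.75%). Their median was -0.01. Ccnb2, the second B cyclin, had means of 662 and 824 CPM (0.32), and Cdk1 had 198 and 173 CPM (-0.20). The Cdk1 phosphatase Cdc25c had 17.7 and 22.0 CPM, and its inhibitory kinase Pkmyt1 had 12.8 and 14.4 CPM. The higher gene was Wee2, a Cdk1 inhibitory kinase of oocytes, with 7 Pachytene and 23 Metaphase I counts, at 0.69 without Metaphase I replicate 2. Ccna1, the cyclin A of male meiosis, had medians of 396 and 644 CPM (0.43).

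Of 34 measured genes of the spindle checkpoint and the anaphase promoting complex, 0 were over 2-fold either way, with a median of 0.11, and this held in every omission of a cell. Bub1b, the checkpoint protein BubR1, had 24.7 to 89.6 CPM in Pachytene (median 34.2) and 10.1 to 99.3 CPM in Metaphase I (median 76.7). It was above the Pachytene median in 8 of 9 Metaphase I cells, with a log2 ratio of 0.60. Mad2l1, which binds Cdc20 in the checkpoint, had medians of 9.89 and 17.4 CPM (0.52). Of 33 spindle and kinesin genes, 1 was over 2-fold lower (5.75% of all genes) and 0 higher (3.32%). It was Kif2b, a microtubule depolymerising kinesin, at -1.41 with 66 and 22 counts. Kif2b was -0.67 without Pachytene replicate 1 and 0.18 without replicates 1 and 4 together. Of 22 cohesin, condensin and shugoshin genes, 0 were past 2-fold (median 0.09). Among 23 tubulins and microtubule proteins 1 was lower (5.75% of all genes) and 0 higher (3.32%). The lower one was Tubg1, at -0.58 without Pachytene replicate 4. Nek1, a kinase with a role in meiotic cohesin removal, had medians of 18.2 and 51.8 CPM (1.12), was chosen after its values were seen and was under 2-fold without Pachytene replicate 4 or 20.

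The prophase programme was at a similar level in both groups. Of 29 measured pachytene and diplotene markers, 0 were over 2-fold either way in any omission of a cell (median -0.01). Sycp3, the axial element protein, had medians of 145 and 142 CPM, and Hspa2, the heat shock protein of spermatocytes needed to take the synaptonemal complex apart, had 1238 and 1149 CPM. Of 11 synaptonemal complex genes 0 were past 2-fold (median 0.08), as were 0 of 14 sex chromosome inactivation genes (0.09) and 0 of 23 piRNA genes (-0.01). Single members passed 2-fold in some omissions, up to 1 each way for the synaptonemal complex and 1 higher for piRNA genes. X-linked genes held 0.0276% to 0.0914% of counts in Pachytene and 0.0265% to 0.0668% in Metaphase I cells. Of 22 recombination genes, 2 were over 2-fold lower (5.75% of all genes) and 0 higher (3.32%), with a median of -0.02. They were Rpa2, a subunit of the single-strand binding protein, with medians of 10.6 and 3.73 CPM (-1.27), and the helicase gene Fancm, with 42 and 8 counts (-1.10). Without Pachytene replicate 11 both were under 2-fold, at -0.98 and -0.62, and Rpa2 was -1.92 without Metaphase I replicate 12.

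Stress response genes showed no common shift. Of 45 immediate early genes in the table, 17 were at 0 in all kept cells and 18 had under 20 counts, and of the 10 measured 0 were over 2-fold either way (median -0.05). Fos had 0 Pachytene counts and 1 Metaphase I count, Egr1 had 2 and 1, Junb 0 and 5, and Atf3 and Ier2 had 0 in both. Jun, the measured AP-1 subunit, had means of 13.4 and 12.1 CPM. The summed level of the list was 122 to 277 CPM in Pachytene cells and 127 to 307 CPM in Metaphase I cells. Of 4 measured NF-kB genes 0 were past 2-fold, with Nfkbib at 139 and 132 CPM.

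Of 24 measured genes of the ATF4 and unfolded protein response, 1 was over 2-fold lower (5.75% of all genes) and 0 higher (3.32%). Their median was 0.02. Atf4 itself had means of 21.0 and 21.2 CPM, and its target Ddit3 had 102 and 106 CPM. The lower gene was Asns, asparagine synthetase, with 21 Pachytene and 2 Metaphase I counts. In summed counts it was 6.70-fold lower (exact 95% interval 1.64 to 58.9, counting error only), and its log2 ratio was -0.71 without Pachytene replicate 1. Of 27 heat shock genes 1 was lower (5.75% of all genes) and 0 higher (3.32%). This was the testis form Hspa1l, with medians of 7.71 and 3.53 CPM and a log2 ratio of -2.05. The inducible Hspa1a and Hspa1b were at 0 in all kept cells. Hspa1l shares sequence with these paralogs, so its counts are uncertain. Of 11 measured p53 and apoptosis genes, 1 was higher (3.32% of all genes) and 2 lower (5.75%), with a median of 0.01. Pmaip1, a BH3-only protein, had 24 Pachytene counts and 0 in Metaphase I, at least 5.10-fold lower when 3 counts over the group stand in for the 0. That bound leaves out the counting error of the 24. The log2 ratio of Pmaip1 was -1.78, and -1.42 without Pachytene replicate 8, its highest cell at 8.53 CPM. Sesn1 was -1.21, -1.94 without Metaphase I replicate 2 and under 2-fold without Pachytene replicate 9. Trp63 was 1.38 with 9 and 20 counts, 0.70 without Metaphase I replicate 8 but 2.42 without Pachytene replicate 15. Mdm2 had 138 and 154 CPM. Of 41 ubiquitin and proteasome genes 0 were past 2-fold in any omission of a cell.

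Genes of RNA metabolism were likewise close. Of 45 measured translation and poly(A)-binding genes, 0 were over 2-fold either way (median 0.01), and of 34 CCR4-NOT and decay genes 0 (median 0.08), although up to 1 passed 2-fold in some omissions of a cell, lower for the former and higher for the latter. Pabpc1, the cytoplasmic poly(A)-binding protein, had 3663 to 5774 CPM in Pachytene and 4857 to 7312 CPM in Metaphase I, with all 9 Metaphase I cells above the Pachytene median (log2 ratio 0.25). Ddx6, an RNA helicase of decay and storage, had medians of 44.2 and 81.0 CPM (0.64). Of 35 splicing factors 1 was lower, Srsf4 (-1.39, 65 and 9 counts), of 29 nucleolar genes 1 was higher, Rrn3, an RNA polymerase I factor (1.87, 6 and 24 counts), and 2 were lower, Gar1 and Nop56, and of 24 transcription regulators 1 was lower, Zfx. Rrn3 was 1.17 without Metaphase I replicate 4, Nop56 was past 2-fold in 10 of 18 omissions, and Zfx was -1.70, -0.42 without Pachytene replicate 12 but -2.32 without Metaphase I replicate 8. Of 10 histone genes H2bc1, the testis histone TH2B, was higher with medians of 1.14 and 6.31 CPM (1.20), and H2bl1, an H2B variant of sperm, was lower (-1.41, and -0.74 without Pachytene replicate 1).

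**Figure D5:**
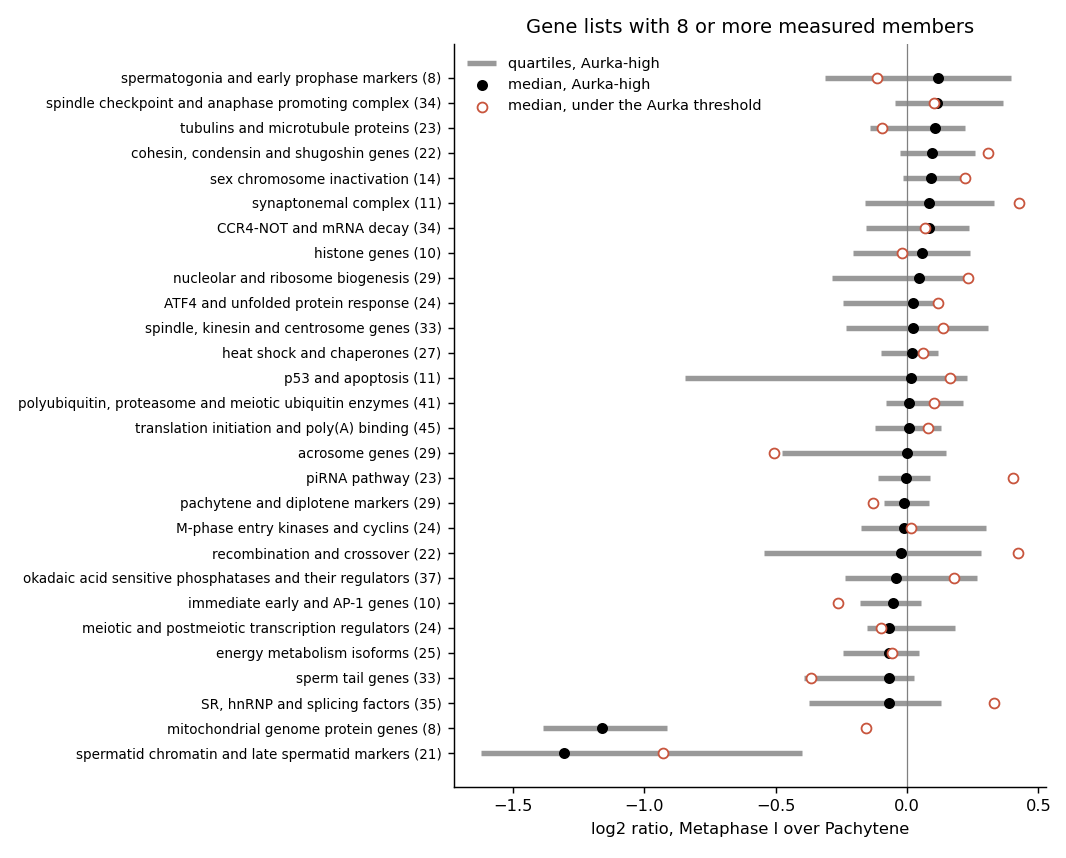
Median log2 ratio of Metaphase I over Pachytene (x axis) for gene lists with 8 or more measured members, whose number is in brackets. Filled points and grey bars are the median and quartiles in the Aurka-high cells, and open points the median in the Aurka-low cells. Mitochondrial protein genes and late spermatid markers lie apart from the other lists in the Aurka-high cells, at -1.16 and -1.30. In the Aurka-low cells they lie at -0.155 and -0.93. Without Metaphase I replicate 18, left out after the values were seen, the Aurka-low mitochondrial median was -1.43.

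Late spermatid genes had a lower median ratio in Metaphase I, and both this median and the count of genes past 2-fold depended on 2 Pachytene cells. The summed list had medians of 731 CPM in Pachytene and 711 CPM in Metaphase I cells. Without Pachytene replicates 1 and 4 its means were 719 CPM in Pachytene and 706 CPM in Metaphase I. Of 21 measured late spermatid and spermatid chromatin genes, 12 were over 2-fold lower (5.75% of all genes) and 0 higher (3.32%), with a median of -1.30, the same with Prm2 and Spem1 set at their bounds. Prm2, a protamine that packs sperm DNA, had 151 Pachytene and 0 Metaphase I counts, at least 32.1-fold lower when 3 counts over the group stand in for the 0. It had 224 CPM in Pachytene replicate 1, 77.7 CPM in replicate 4, 1.75 CPM in replicate 6 and 0 in the other 6. Replicates 1 and 4 together held 91.3% of the Pachytene counts of Prm1 and Prm2, 19.3% of those of the whole list and 11.6% of all counts of the group. Prm1 had 80 and 6 counts (8.50-fold lower in the sum, 3.74 to 23.9), the transition protein gene Tnp1 had 65 and 13, and Spem1, a protein of sperm maturation, had 24 and 0 (at least 5.10-fold lower). The log2 ratio of Prm1 was -3.19, and -1.53 without Pachytene replicate 1. That of Tnp1 was -2.11, and it was -1.15 without Pachytene replicate 1 but -2.94 without Metaphase I replicate 2. Of the same 21 genes, with no second count minimum, 7 were over 2-fold lower without Pachytene replicate 1 and 11 without replicate 4. Without both cells 1 of the 21 was over 2-fold lower, the median was -0.18, and 17 of them still had 20 counts.

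Acrosome and sperm tail genes had medians near 0. Of 29 measured acrosome genes, 2 were over 2-fold lower (5.75% of all genes) and 0 higher (3.32%), with a median of 0.00. They were Izumo1, the sperm protein that binds the egg (23 and 3 counts, 4.89-fold lower in the sum, 1.48 to 25.4), and the lysozyme-like Lyzl1 (75 and 17 counts). Izumo1 had a log2 ratio of -1.66, which was -1.01 without Pachytene replicate 4. Both stayed over 2-fold lower in all 18 omissions of a single cell, each of which left Pachytene replicate 1 or 4 in place. Replicates 1 and 4 had the highest levels of both genes, 6.51 and 15.9 CPM for Izumo1 and 15.2 and 17.7 CPM for Lyzl1. Single omissions therefore do not show if the differences hold without both cells. In the other Pachytene cells Izumo1 was at most 3.98 CPM and Lyzl1 at most 14.45 CPM. The Metaphase I cells overlapped these, at up to 3.25 CPM of Izumo1 and 10.85 CPM of Lyzl1. With the 29 genes kept the number lower was 4 without Metaphase I replicate 2 and 5 without replicate 4. Of 33 sperm tail genes 4 were over 2-fold lower (5.75% of all genes) and 0 higher (3.32%), with a median of -0.07 and with Spata3, Akap4 and Ropn1 the lowest. With the 33 genes kept this number was 2 without Pachytene replicate 1, 1 without Pachytene replicate 4 but 6 without Metaphase I replicate 2. Spata3 had a log2 ratio of -2.85, which was -2.06 without Pachytene replicate 4. Its levels were 28.2 and 37.1 CPM in Pachytene replicates 1 and 4 and at most 2.84 CPM in every other kept cell. Akap4, the fibrous sheath scaffold, had 68 and 16 counts and a log2 ratio of -1.51, which was -0.83 without Pachytene replicate 4. Its highest levels were also in Pachytene replicates 1 and 4, at 15.2 and 35.3 CPM. Elsewhere Akap4 reached 9.6 CPM in Pachytene and 9.8 CPM in Metaphase I. Neither Spata3 nor Akap4 is given here as a ratio without both replicates.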

How the data were processed

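Per the labels' protocols, cDNA from each cell was primed with barcoded oligo(dT) in a modified STRT-seq method, and 3' ends were sequenced after 20 and 4 cycles of PCR. Per the submitters' processing notes, reads were handled with UMI-tools, STAR and featureCounts on GRCm38, in versions the sources used here do not give. The authors deposited whole-number counts for 55492 genes. The sources used here give neither the strand setting nor if counts are reads or molecules. Coordinates are those of the deposited table.

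Each cell's counts were divided by its total to give CPM. The log2 ratio compares group means with a pseudocount of 1 CPM. Genes with 20 or more summed counts were measured, and over 2-fold is the only call. No test was made, since no animal or culture is named. Intervals are exact at 95% and cover counting error only. They would be too narrow if counts are reads. The members and the 32 gene lists were chosen with earlier results of these data known. Named genes were the 15 highest and 15 lowest by the limits in the text, up to 3 genes per list with the largest ratio, the markers, the catalytic phosphatase subunits and the 5 top genes of each group by level. Other genes were chosen after their values were seen, among them all mitochondrial mRNAs but 3. No doublet caller was run on 18 cells. Over 153 pairs of kept cells the chi-square per degree of freedom was 2.85 or more, so no cell was a copy of another. The code was tested on simulated counts. Tools were Python 3.11.15, numpy 2.4.6, pandas 2.3.3, scipy 1.17.1 and matplotlib 3.10.9, with edgeR 4.0.16 and DESeq2 1.42.0 for scaling factors only. Alternatives are given at the end.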

Additional observations from a re-analysis of the deposited data

Results flagged for a closer look

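For 8 measures and 50 genes, the highest and the lowest of the 9 cells of each group were compared with the rest of their group by Dixon's criterion. Of 114 sets of values, 15 held a cell that stood apart. The limit used flags about 1 set in 20 when values are normal, but many of these sets are skewed, low CPM values. Many of the genes were also picked for extreme ratios in the same cells. The number of sets flagged is therefore not compared with chance.

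Pachytene replicate 1 had the most late spermatid RNA of its group, 1871 CPM with the next at 949 CPM, the highest X-linked share, 0.0914% with the next at 0.0586%, and the highest Ppp1cc level, 137 CPM with the next at 96.5 CPM. Pachytene replicate 4 was highest for Creb3l4 at 79.5 CPM and for Ppp6c at 155 CPM. Pachytene replicate 6 was highest for Nifk at 25.4 CPM and for Kif24 at 25.0 CPM. Pachytene replicate 20 had 827 CPM of mt-Cytb, with the next cell at 378 CPM.

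Metaphase I replicate 12 stood apart in mitochondrial mRNA relative to rRNA, at 19.0% with the next at 11.5%, and in Zfp389 at 30.4 CPM and Lrrk2 at 32.9 CPM. Metaphase I replicate 6 was highest for Aspm at 42.4 CPM and Fbxo25 at 21.2 CPM, replicate 5 for Arhgap23 at 16.8 CPM, and replicate 2 for Itpkb at 13.0 CPM.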

How the results depend on the processing

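The number of genes over 2-fold higher, 384, was 837 for medians over cells, 2 with a pseudocount of 10 CPM, 67 and 839 with count minimums of 100 and 1, and 236 in thinned cells. The number lower, 666, was 1110, 17, 148, 1128 and 322 in the same order. Omitting a single cell gave 351 to 440 higher and 566 to 770 lower. The all-gene median ran from -0.015 to 0.011 over the omissions, the mitochondrial mRNA sum from -1.52 to -1.24 and its list median from -1.32 to -0.99. The late spermatid median ran from -1.47 to -0.58. Without Pachytene replicates 1 and 4, a setting chosen after seeing the data, it was -0.18, and Kif2b and Ropn1 turned to 0.18 and 0.034. Under the other scalings (TMM, median of ratios, totals without mitochondrial and ribosomal protein genes), summed counts, Aurka limits of 300 and 500 CPM, and cells of 300 CPM Ccnb1 or more (chosen after seeing the data), the mitochondrial mRNA sum stayed lower. Its Aurka-low value of 0.01 was -1.40 without Metaphase I replicate 18, also chosen after seeing the data. Limits of 50 CPM Acrv1 and 0.3% X-linked counts left the same 18 cells and gave no other value. No paired analysis was possible because no result comes from a test and cells share only a number.

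Depth limits the rare genes. Of the 384 and 666 genes past 2-fold, 82 and 169 had over 50% of the higher group's counts in 1 cell. With 1 sample per group, no value separates the treatment from differences between animals or cultures.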
